A study of Mus musculus with 4 samples.

Results

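The cyclic nucleotide phosphodiesterases described here are 10 genes of the mouse heart: *Pde4a*, *Pde4b*, *Pde4d*, *Pde7a*, *Pde8a*, *Pde1c*, *Pde2a*, *Pde3a*, *Pde3b* and *Pde5a*. They were taken by symbol from the 55401 genes of the expression table, and all 10 were found, out of 24 mouse genes of the family. Heart RNA of mice aged 8 weeks was sequenced in 4 libraries, 2 from wild-type mice and 2 from *Ctcf* +/R567W heterozygous mice. The mice were C57BL/6N, and the heterozygous animals carried the CTCF-R567W substitution, made by CRISPR/Cas9 editing, on one allele of *Ctcf* in the whole body, while the other allele was wild-type. CTCF is a zinc finger protein that binds DNA and shapes chromatin loops. The comparison addresses whether this allele goes with different gene expression in the adult heart. The allele is not limited to the heart or to one cell type, and the libraries were made from heart tissue with all its cell types.

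Phosphodiesterases break down cyclic AMP (cAMP) and cyclic GMP (cGMP), the second messengers through which adrenaline, natriuretic peptides and nitric oxide act on the heart. Each subfamily differs in the nucleotide it prefers, in how it is regulated and in where it sits in the cell, so that it limits the signal in its own compartment. In cardiomyocytes the PDE4 and PDE3 enzymes are known for curbing beta-adrenergic cAMP at the calcium handling proteins, PDE2 links cGMP to cAMP breakdown, and PDE5 breaks down cGMP.

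The values are relative transcript abundances (TPM), which are per transcript length and sum to the same total in every library, so levels of different genes can be set side by side. The scaled TPM below are TPM divided by a median-of-ratios factor of the library (1.09 and 1.26 in wild-type, 0.818 and 0.903 in heterozygous replicates 1 and 2). Mitochondrial mt- genes took 64.7% and 61.1% of all TPM in wild-type and 68.6% and 62.6% in heterozygous libraries, which overlap. The scaling between libraries decides some of the directions given below. Between 19916 and 20633 genes were above 0 in a library, and log2 values of the libraries correlated at 0.966 to 0.981 across genes, which are not independent replicates. Read depth is unknown, so no counting error is given. Cardiomyocyte markers summed to 19078 to 23107 scaled TPM, with overlapping groups, and none of the 8 was at 0. On TPM as deposited, without the scaling, the sums were 25136.7 and 27368.8 in wild-type against 15596.8 and 20480.5 in heterozygous libraries. These were separate downwards, as were 67.8% of all tested genes on that scale. Of the 8 markers 3 were higher and 5 lower in the heterozygous hearts on the scaled values, none at an unadjusted p under 0.05. Separate downwards were *Actc1*, *Myl2* and *Pln* (log2 fold changes -0.46, -0.39 and -0.48). Their part in the member values was not tested. *Ctcf* itself was at 6.12 and 6.02 scaled TPM in wild-type libraries and at 7.51 and 5.76 in heterozygous libraries, which overlap (log2 fold change 0.10, standard error 0.16, adjusted p = 0.814). This level does not check the genotype, since the substitution leaves the gene in place and TPM do not separate alleles.

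Start regions of *Pde4a* and *Pde2a* are shown first, since these are the members with the largest differences in scaled TPM between the genotypes. RefSeq windows of 300 bases (250 before to 50 after an annotated start, GRCm38.p6, the same assembly as mm10) were found for 7 of the 10 members, 18 windows in all, among them 3 for *Pde4a* and 5 for *Pde2a*. The windows were searched on both strands for the core letters of the CTCF motif (AGGGGGC) and for the cAMP response element half-site (TGACG), motifs chosen after the expression values were seen. The CTCF core is present in 2 member windows, the first *Pde4a* window and 1 *Pde2a* window, and in 10.6% of all 32851 RefSeq windows. The half-site is present in 4 member windows, 1 each of *Pde4a*, *Pde4b*, *Pde2a* and *Pde8a*, and in 20.8% of all windows. The windows of *Pde4a* and *Pde2a* that hold one of these letter runs, or both, are printed from 5′ to 3′ on the plus strand, which is the strand of both genes, with the matched letters in capitals.
Pde4a first start, chr9:21165464-21165763: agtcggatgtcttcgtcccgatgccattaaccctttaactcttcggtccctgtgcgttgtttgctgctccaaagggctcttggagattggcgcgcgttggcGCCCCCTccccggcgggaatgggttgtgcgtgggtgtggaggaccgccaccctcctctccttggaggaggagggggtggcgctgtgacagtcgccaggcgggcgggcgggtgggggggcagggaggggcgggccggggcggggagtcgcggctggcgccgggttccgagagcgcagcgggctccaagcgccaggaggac
Pde4a second start, chr9:21183851-21184150: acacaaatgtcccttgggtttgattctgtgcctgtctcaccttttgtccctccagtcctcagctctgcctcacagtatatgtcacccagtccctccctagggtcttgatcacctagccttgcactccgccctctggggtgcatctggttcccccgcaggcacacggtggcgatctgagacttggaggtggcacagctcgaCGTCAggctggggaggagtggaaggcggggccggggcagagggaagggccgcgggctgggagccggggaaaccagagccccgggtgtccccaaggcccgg
Pde2a, chr7:101450270-101450569: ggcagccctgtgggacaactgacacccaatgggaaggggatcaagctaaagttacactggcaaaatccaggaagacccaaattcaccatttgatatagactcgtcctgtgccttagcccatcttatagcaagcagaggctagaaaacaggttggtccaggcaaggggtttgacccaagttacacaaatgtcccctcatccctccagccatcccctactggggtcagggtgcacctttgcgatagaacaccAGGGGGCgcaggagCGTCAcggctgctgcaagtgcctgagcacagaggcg
In the first *Pde4a* window the capitals mark the core on the other strand (GCCCCCT, 21165565 to 21165571), 149 bases before the start. In the second they mark the half-site on the other strand (CGTCA), 50 bases before the start. In the *Pde2a* window they mark the core at the start base itself (101450520 to 101450526) and the half-site on the other strand, which begins 14 bases after the start. The full 8-base palindrome TGACGTCA (1.79% of all windows) and a consensus of CTCF of 12 bases (1.28%) are in none of the 18 member windows. A letter match is a description of the sequence and shows no binding. Gene-level TPM do not tell which start a transcript used.

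Transcript levels of the 10 genes spanned a wide range, and 3 genes carried most of the total. Over the 4 libraries *Pde2a*, the cGMP-stimulated enzyme, had the highest mean at 18.6 scaled TPM, followed by *Pde4a* at 13.9 and *Pde7a* at 8.44, both cAMP-specific. *Pde4d* (3.74), *Pde8a* (3.22) and *Pde4b* (3.04) formed a middle group, and *Pde1c* (2.06), *Pde3a* (1.05), *Pde3b* (0.470) and *Pde5a* (0.202) were lower. *Pde2a* lay above *Pde4a* in 4 of 4 libraries although their ranges over the libraries overlap, and *Pde4a* lay above *Pde7a* in 3 of 4. The neighbours *Pde4d* and *Pde8a*, and *Pde8a* and *Pde4b*, did not differ beyond their spread. The ranges of the other neighbours in this order do not overlap.

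**Figure D1:**
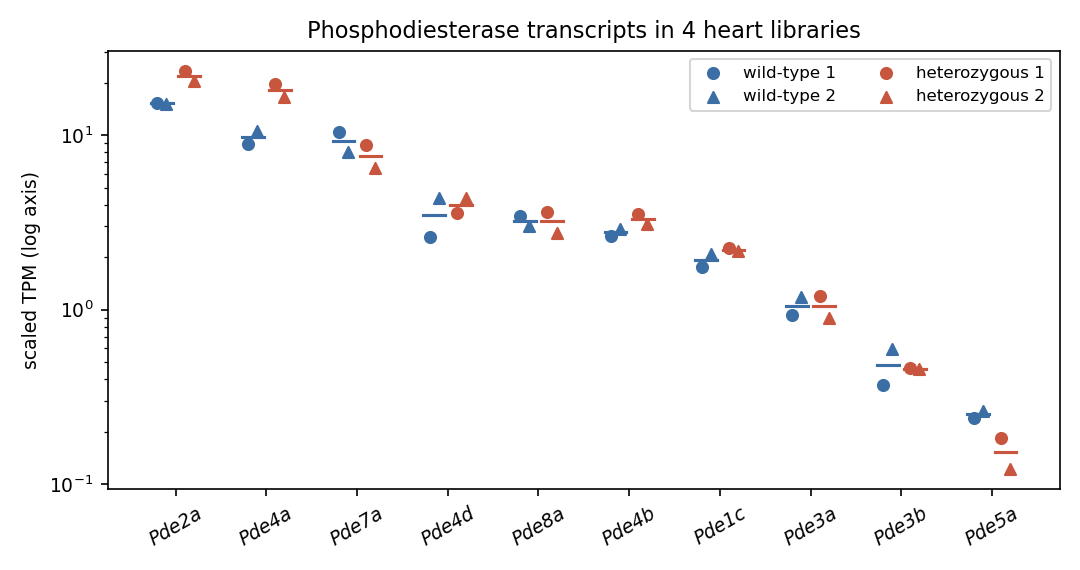
Scaled TPM (log axis) of the 10 phosphodiesterase genes in each library, ordered by the mean over all libraries, with wild-type points in blue, heterozygous points in red, circles for replicate 1, triangles for replicate 2 and a bar at each genotype mean. Both heterozygous points lie above both wild-type points for *Pde2a*, *Pde4a*, *Pde4b* and *Pde1c*, and below them for *Pde5a*.

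Between the genotypes, *Pde4a* and *Pde2a* were higher in the heterozygous hearts on the scaled values, by 1.86-fold and 1.43-fold in the means, while no member passed the adjusted threshold. The test was limma on log2(scaled TPM + 1) over the 10036 genes whose mean TPM reached 1. Log2 fold changes are heterozygous against wild-type on that scale, on which low genes appear to change less than they did. Of the members 8 could be tested, and *Pde3b* and *Pde5a*, with mean TPM of 0.485 and 0.213, fell under the filter. *Pde3a* was just inside it at 1.07. None of the 8 met the call rule, adjusted p below 0.05 together with a change of over 1.5-fold, which 0.0199% of all tested genes met. The authors, who tested read counts with DESeq2 at other thresholds, name *Pde4a* among the genes upregulated in heterozygous hearts at this age. At an unadjusted p under 0.05, 2 members were higher (*Pde4a* and *Pde2a*) and 0 lower, against 6.49% of all tested genes higher and 5.71% lower. Without wild-type replicate 1, and likewise without wild-type replicate 2, 1 member (*Pde4a*) was left at that threshold, where 2.35% and 2.44% of all tested genes were higher. By direction alone 5 of the 8 were higher, against 49.3% of all tested genes, and the median log2 fold change was 0.15 over the 8 members and -0.00 over all tested genes. The genotypes did not overlap for 4 members, all with the heterozygous libraries on top, and for 0 of the 8 in the other direction, where 23.7% of all tested genes were separated upwards and 23.3% downwards. Only *Pde4a* was over 1.5-fold higher, as were 2.5% of all tested genes. An exact two-sided permutation test cannot go below p = 0.33 with 2 libraries against 2. The labels do not state outright that each library came from a separate mouse, so the p-values measure only the spread between these samples, which may be technical. In whole tissue, fewer cells of a type and less RNA per cell cannot be told apart.

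The PDE4 enzymes are cAMP-specific, are the targets of rolipram and are encoded by several genes with many long and short isoforms. *Pde4a* (chromosome 9, 21165714 to 21213248, plus strand, 5 annotated transcripts, 3 of them coding, mm10) was at 8.93 and 10.6 scaled TPM in the wild-type libraries and at 19.7 and 16.6 in the heterozygous libraries. The groups did not overlap, and the gap between them was wider than the spread within either. Its mean ± SD was 9.76 ± 1.18 in wild-type and 18.1 ± 2.21 in heterozygous hearts (n = 2 each). The log2 fold change was 0.83 with a standard error of 0.17, and the adjusted p was 0.286. The unadjusted p was 0.00212, smaller than that of all but 73 of the 10036 tested genes, and 76 genes had a larger log2 fold change. TPM as deposited also left the groups apart, at 9.71 and 13.35 against 16.1 and 14.96, but the log2 fold change was 0.41 there (standard error 0.22, unadjusted p = 0.0944, adjusted p = 0.201). The 4 atrial markers were all higher as well (median log2 fold change 0.83), with overlapping sums, and their part in the *Pde4a* values was not tested.

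*Pde4b* and *Pde4d*, the other PDE4 members, differed less. *Pde4b* (chromosome 4, 102087543 to 102607259) was at 2.64 and 2.91 against 3.54 and 3.10 scaled TPM, separate by a narrow margin (log2 fold change 0.19, standard error 0.14, adjusted p = 0.569). *Pde4d* (chromosome 13, 108449948 to 109953461), the PDE4 gene known for its complex with the ryanodine receptor, was at 2.61 and 4.39 against 3.60 and 4.35. Its groups overlap, and the wild-type libraries lay farther from each other than the genotype means did (log2 fold change 0.17, standard error 0.21, adjusted p = 0.756). The log2 fold change of *Pde4d* was -0.12 without wild-type replicate 1 and 0.46 without wild-type replicate 2. With TPM as deposited both genes had the opposite sign, at -0.14 for *Pde4b* and -0.18 for *Pde4d*. As a share of the 4 *Pde4* genes, *Pde4c* included, *Pde4a* took 41.6% and 46.2% of their TPM in wild-type and 55.2% and 54.8% in heterozygous libraries. *Pde4b* took 12.3% and 12.7% against 9.91% and 10.3%, and *Pde4c* and *Pde4d* overlapped between the genotypes. These shares do not depend on the scaling between libraries, and for *Pde4a* they gave an exact permutation p of 0.33, the smallest possible.

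The other cAMP-specific members, *Pde7a* and *Pde8a*, were not higher. Both encode enzymes with high affinity for cAMP that rolipram does not inhibit. *Pde7a* (chromosome 3, 19223108 to 19311322, minus strand) was at 10.5 and 8.03 scaled TPM in wild-type and at 8.76 and 6.52 in heterozygous libraries, and the groups overlap. The log2 fold change was -0.25 with a standard error of 0.20 and an adjusted p of 0.610, and it was -0.08 without wild-type replicate 1 and -0.06 without heterozygous replicate 2. As deposited, its TPM were 11.38 and 10.12 against 7.16 and 5.89, which do not overlap. The limma fit to these values gave a log2 fold change of -0.65, with an adjusted p of 0.0912. On that scale the median tested gene was at -0.35, and *Pde7a* was at -0.30 relative to it. *Pde8a* (chromosome 7, 81213596 to 81334533) was at 3.46 and 3.02 against 3.65 and 2.77 scaled TPM, with overlapping groups and almost equal means (log2 fold change -0.02, standard error 0.16, adjusted p = 0.971).

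Of the enzymes that take both nucleotides, *Pde2a* was the highest and the one with the widest gap between the genotypes. *Pde2a* (chromosome 7, 101421691 to 101512827, plus strand, 12 annotated transcripts, 4 of them coding) was at 15.4 and 15.2 scaled TPM in wild-type and at 23.4 and 20.4 in heterozygous libraries. The groups did not overlap, and the wild-type libraries were almost equal (15.3 ± 0.120 against 21.9 ± 2.18, mean ± SD, n = 2 each). The log2 fold change was 0.49 with a standard error of 0.16, the unadjusted p was 0.0190 and the adjusted p was 0.346. As deposited the values were 16.72 and 19.15 against 19.17 and 18.4 TPM, which overlap, with a log2 fold change of 0.07, or 0.41 above the median tested gene. *Pde2a* is known to be expressed in endothelial cells as well as cardiomyocytes. The 8 endothelial markers summed to 276 and 276 scaled TPM in wild-type and to 307 and 354 in heterozygous libraries, separate in the same direction, and *Egfl7* alone made up 197 and 193 against 235 and 277 of these sums. As deposited the sums were 301 and 347 against 251 and 320 TPM, which overlap, with the lower mean in heterozygous libraries. Of the 8 markers 2 were higher and 6 lower, with *Pecam1* at 12.7 and 13.8 against 8.54 and 10.8 (unadjusted p = 0.0419), and none was at 0. Their part in the *Pde2a* difference was not tested.

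*Pde1c* (chromosome 6, 56069804 to 56569103, minus strand), a calcium and calmodulin dependent enzyme, was at 1.76 and 2.07 against 2.25 and 2.17 scaled TPM. The groups did not overlap, but their gap was narrower than the distance between the wild-type libraries (log2 fold change 0.14, standard error 0.14, adjusted p = 0.680), and as deposited the sign was the opposite at -0.16. *Pde3a* and *Pde3b* encode the cGMP-inhibited enzymes, the targets of milrinone. *Pde3a* (chromosome 6, 141249269 to 141507448) was at 0.928 and 1.17 against 1.199 and 0.897 scaled TPM. Its groups overlap with equal means (log2 fold change -0.00, standard error 0.15, adjusted p = 0.992). An antisense gene, *Gm28523*, shares exon sequence with *Pde3a* and was at 0.33 and 0.54 against 0.21 and 0.26 TPM, and whether reads were assigned by strand is not given in the sources used here. *Pde3b* (chromosome 7, 114415281 to 114539251) was at 0.368 and 0.595 against 0.465 and 0.454 scaled TPM, with the heterozygous libraries inside the wild-type range.

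*Pde5a* (chromosome 3, 122728947 to 122859374), the cGMP-specific enzyme that sildenafil inhibits, was the lowest member and the one whose heterozygous libraries both lay below both wild-type libraries. It was at 0.239 and 0.262 scaled TPM in wild-type and at 0.183 and 0.122 in heterozygous libraries. It was too low for the filter, and a fit without the filter put the log2 fold change at -0.12, with an SE of 0.05 and an adjusted p of 0.602, on the log2(scaled TPM + 1) scale, where a pseudocount of 1 is far above its level. *Pde5a* is known from vascular smooth muscle, and the 8 smooth muscle and mural markers summed to 88.4 and 81.4 against 65.6 and 81.1 scaled TPM. Of the 7 of these that were tested 6 were lower and 1 higher, none at an unadjusted p under 0.05, and none of the 8 was at 0 in all libraries. Their part in the *Pde5a* values was not tested.

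**Figure D2:**
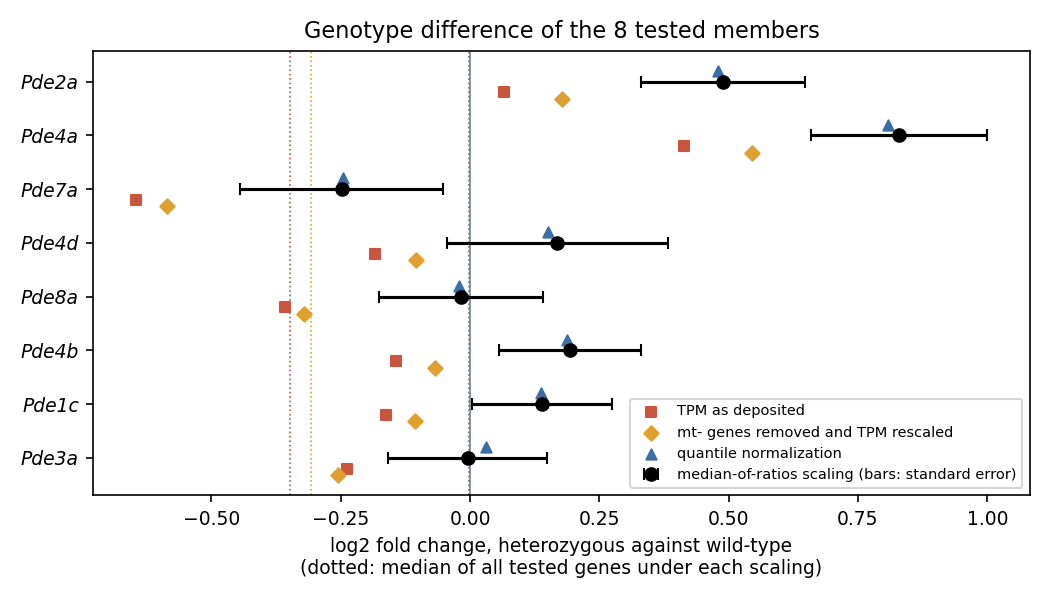
Log2 fold change (heterozygous against wild-type) of the 8 tested members under each scaling, with black circles and standard error bars for median-of-ratios scaling, red squares for TPM as deposited, yellow diamonds for TPM without mt- genes, blue triangles for quantile normalisation and dotted lines at the median of all tested genes. *Pde4a* and *Pde2a* are above 0 and *Pde7a* is below 0 under all of them, and *Pde4b*, *Pde4d* and *Pde1c* change side with TPM as deposited and without mt- genes.

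The counts of members moved with the scaling, as did those of all genes. With TPM as deposited, 941 of 10036 genes were higher and the median gene was at a log2 fold change of -0.35, whereas 4944 genes were higher on the scaled values. On the deposited scale 2 of the 8 members were higher and 6 lower. *Pde4a* alone stayed separate upwards, as did 2.32% of all tested genes, and *Pde7a*, *Pde8a* and *Pde3a* were separate downwards, as were 67.8%. Relative to the median of all tested genes on each scale, *Pde4a* was 0.83 above it on the scaled values, 0.76 above it as deposited and 0.85 above it without mt- genes. *Pde7a* was at -0.24, -0.30 and -0.28 relative to it in the same order.

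Shares within a library do not depend on the scaling, and on them *Pde4a* and *Pde2a* took more and 5 members took less in both heterozygous libraries. A share of the members' sum has no counterpart over all genes, so these counts are not read as a result. Among all tested genes 23.7% were separate upwards and 23.3% downwards on the scaled values, and 2.32% and 67.8% as deposited. Shares sum to 100%, so a larger share of one member lowers those of the others whether or not their levels differ. *Pde4a* took 19.1% and 22.0% of the summed TPM of the 10 members in wild-type libraries and 29.5% and 28.9% in heterozygous libraries, 8.67 percentage points more in the mean. *Pde7a* took 22.4% and 16.6% against 13.1% and 11.4%, a difference of -7.26 points in the mean, which was -4.40 without wild-type replicate 1 and -10.1 without wild-type replicate 2. The *Pde4a* share was below that of *Pde7a* in wild-type replicate 1 and above it in the other 3 libraries. *Pde2a* took 32.9% and 31.5% against 35.1% and 35.5%. *Pde8a* took 7.39% and 6.27% against 5.46% and 4.83%, and *Pde5a* 0.511% and 0.543% against 0.275% and 0.212%. *Pde4b* took 5.64% and 6.02% against 5.29% and 5.41%, a lower share beside a higher scaled level, which overlapped with all 24 family genes as the denominator (3.99% and 4.43% against 4.02% and 4.02%), and *Pde3a* 1.99% and 2.43% against 1.80% and 1.56%. None of these groups overlap, and each gave an exact permutation p of 0.33, the smallest the design allows, so no share passed a test. *Pde4d*, *Pde1c* and *Pde3b* had overlapping shares.

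Summed by substrate, the cAMP-specific members and those that take both nucleotides kept similar shares of the members' TPM. These sums leave out *Pde4c* and *Pde9a*, which are not members. The cAMP-specific members together took 60.1% and 60.0% of the members' TPM in wild-type and 58.7% and 58.1% in heterozygous libraries, with a larger share of *Pde4a* and smaller shares of *Pde7a* and *Pde8a*. The members that take both nucleotides took 39.4% and 39.5% against 41.0% and 41.7%. Both pairs are separate, with differences of -1.61 and 1.89 percentage points in the means. The cGMP-specific class, *Pde5a* alone and the lowest member, took 0.511% and 0.543% against 0.275% and 0.212%, separate as well. The members *Pde4a*, *Pde4b* and *Pde4d* together took 30.3% and 37.1% against 40.2% and 41.9%. The summed scaled TPM of the 10 members was 46.8 and 48.3 in wild-type and 66.8 and 57.3 in heterozygous libraries, which do not overlap, while as deposited the sums of 50.87 and 60.79 against 54.59 and 51.77 do.

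**Figure D3:**
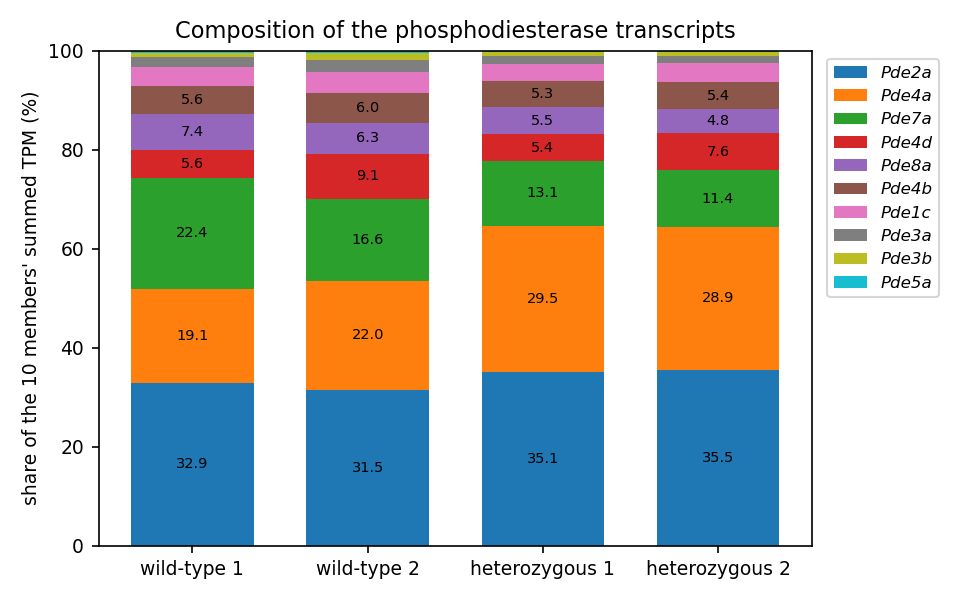
Share of each member in the summed TPM of the 10 members (percent, stacked to 100) in each library, with the values of the larger shares printed inside the bars. The *Pde4a* segment is 19.1% and 22.0% in wild-type and 29.5% and 28.9% in heterozygous libraries, and the *Pde7a* segment is 22.4% and 16.6% against 13.1% and 11.4%.

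Ratios between members, chosen after the values were seen, do not depend on the scaling either. The TPM of *Pde4a* relative to *Pde7a* was 0.853 and 1.32 in wild-type and 2.25 and 2.54 in heterozygous libraries. Relative to *Pde2a* it was 0.581 and 0.697 against 0.840 and 0.813, and relative to *Pde4b* 3.38 and 3.65 against 5.57 and 5.34. The ratio of *Pde4a* to each of the 9 other members was higher in both heterozygous libraries than in both wild-type libraries in 9 of 9 cases. These ratios share the *Pde4a* value and are not separate results. For *Pde2a* the ratios were higher to 7 members, lower to 1 (*Pde4a*) and overlapping for 1 (*Pde4d*). For *Pde7a* they were higher to 1 (*Pde5a*), lower to 4 and overlapping for 4.

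**Figure D4:**
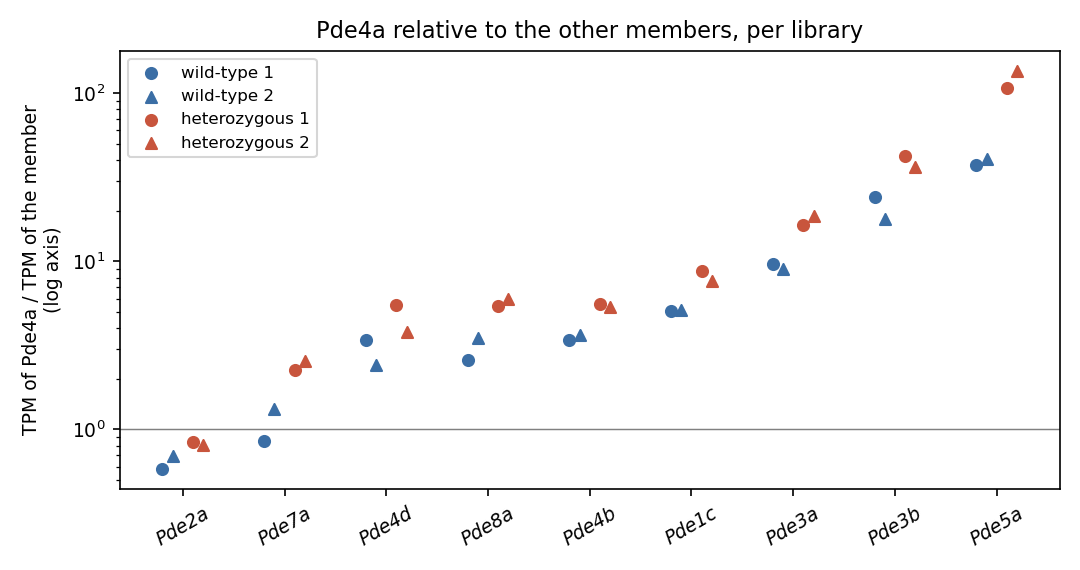
TPM of *Pde4a* divided by TPM of each other member (log axis), per library, with wild-type points in blue and heterozygous points in red and a grey line at equal levels. Both heterozygous points lie above both wild-type points for all 9 genes, and the ratio to *Pde7a* is 0.853 and 1.32 in wild-type and 2.25 and 2.54 in heterozygous libraries.

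Of the 14 other genes of the family 5 were expressed highly enough to be tested. *Pde4c*, the fourth PDE4 gene, was at 7.30 and 5.06 against 8.83 and 6.22 scaled TPM (log2 fold change 0.25, adjusted p = 0.655), with overlapping groups. *Pde9a*, which breaks down cGMP with high affinity, was at 3.95 and 3.16 against 3.78 and 4.64, and *Pde6d*, a carrier of prenylated proteins named for its part in the photoreceptor enzyme, at 3.13 and 4.81 against 3.49 and 4.52. *Pde1b* was at 1.36 and 1.38 against 1.79 and 1.48 and *Pde8b* at 1.54 and 1.13 against 1.31 and 1.28, and of these only *Pde1b* had separate groups on the scaled values. As deposited it was separate in the other direction, at 1.48 and 1.74 against 1.46 and 1.34 TPM, and *Pde8b* was separate downwards as well, at 1.68 and 1.42 against 1.07 and 1.16. Of the 5 genes 4 were higher and 1 lower, none at an unadjusted p under 0.05. The photoreceptor gene *Pde6c* was listed at 0 in all libraries.

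The genes around the phosphodiesterases were counted in lists by role. Of 14 genes that make cAMP or couple receptors to it 7 were tested, 4 higher and 3 lower, none at an unadjusted p under 0.05 (median log2 fold change 0.13). Of 9 genes for cGMP synthesis 5 were tested, 4 higher and 1 lower (median 0.24). *Npr2*, the receptor of C-type natriuretic peptide, was at 36.1 and 30.2 against 47.5 and 43.4 scaled TPM, with separate groups (log2 fold change 0.45, standard error 0.18, unadjusted p = 0.0409, adjusted p = 0.393). As deposited it was at 39.2 and 38.0 against 38.8 and 39.2 TPM, which overlap, and the sum of the 9 genes turned from higher on the scaled values to lower (73.3 and 75.8 against 70.2 and 69.5 TPM). Of 18 genes listed as effectors of the cyclic nucleotides 12 were tested, 4 higher and 8 lower (median -0.06). The lower ones include *Abcc4* and *Abcc5*, which are transporters (log2 fold changes -0.06 and -0.05). In the same list *Prkar1a*, a regulatory subunit of the cAMP-dependent kinase, was at 14.3 and 17.7 against 23.7 and 21.6, also separate (log2 fold change 0.48, standard error 0.17, unadjusted p = 0.0292, adjusted p = 0.372). As deposited its heterozygous libraries, at 19.3 and 19.5 TPM, lay inside the wild-type range of 15.6 to 22.3. Of 16 genes listed as anchors and scaffolds 15 were tested, 9 higher and 6 lower, none at an unadjusted p under 0.05 (median 0.02). This list also holds *Pde6d*, already counted among the other family genes, and its log2 fold change is that median. No gene of these lists passed the adjusted threshold, and the shares at an unadjusted p under 0.05 among all tested genes are those given above.

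Markers of other cell types differed between libraries within a genotype as well. The 4 atrial markers summed to 806 and 2354 scaled TPM in wild-type and to 1918 and 3281 in heterozygous libraries, a 4.07-fold range, and the 5 erythroid markers to 930 and 987 against 965 and 2120. All 4 atrial markers (median log2 fold change 0.83) and all 5 erythroid markers (median 0.53) were higher in heterozygous hearts, none at an unadjusted p under 0.05. The fibroblast sums were 143 and 194 against 126 and 147, and the macrophage and immune sums 35.6 and 37.6 against 25.8 and 37.6. Both overlap, but as deposited they were separate downwards, at 156 and 244 against 103 and 133 TPM and 38.7 and 47.3 against 21.1 and 34.0 TPM. Of the 8 fibroblast markers 6 were lower (*Lum* at an unadjusted p under 0.05) and 2 higher, and of 5 immune markers tested 4 were lower and 1 higher. Among the 6 skeletal muscle markers the fast myosins *Myh1*, *Myh2* and *Myh4* were listed at 0 in all libraries. The 6 adipocyte markers, none high enough to be tested, summed to 2.30 and 0.929 against 0.196 and 0.819, separate downwards, and the 6 neuronal and glial markers to 3.35 and 4.28 against 4.61 and 2.82. The atrial and erythroid sums were lowest in wild-type replicate 1, as was *Pde4a*, and highest in heterozygous replicate 2. *Pde4a* and *Pde2a* were highest in heterozygous replicate 1. The part of these markers in the member values was not tested.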

How the data were processed

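Heart RNA of 4 libraries was analysed, 2 wild-type and 2 *Ctcf* +/R567W, grouped by the labels. The authors deposited TPM per gene, rounded to 2 decimals, in 1 table. Per the methods, reads were trimmed with Trim Galore (0.6.10), aligned to mm10 with STAR (2.7.4a) and quantified with RSEM (1.2.28). TPM keep no depth, so no count model was fitted. Every sample column was used.

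Each library was scaled by a median-of-ratios factor, computed from genes above 0 in all libraries whose mean TPM reached 1. Log2 was taken after a pseudocount of 1. The 10036 genes whose mean TPM reached 1 were tested two-sided in limma (3.58.1, R 4.3.3; lmFit, eBayes with trend), and p-values were adjusted by Benjamini-Hochberg across them. Unless called exact, a gene's p-value comes from this limma model. Shares of TPM were compared by an exact two-sided permutation test. The script was tested on simulated data. Positions are from GENCODE for GRCm38 (55141 identifiers matched without version), and promoter windows from RefSeq. The annotation release of the table is not given in the sources used here.

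The members and lists were chosen with earlier results of these data known. Named genes are the members, other family genes whose mean TPM reached 1, up to 4 genes per pathway list at an unadjusted p under 0.05, and *Ctcf*. Other genes, and the ratios and motifs, were chosen after their values were seen.

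Alternatives were pseudocounts of 0.1 and 5, quantile normalisation, no filter, a filter at a mean TPM of 5, unscaled TPM, TPM rescaled without mt- genes, eBayes without trend or robust, the replicate number as a block, an adjusted p alone, all 24 family genes as the denominator of shares, each library left out in turn and, added after the values were seen, factors over all genes. Tables were made with Python (3.11.15) and pandas (2.3.3).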

Additional observations from a re-analysis of the deposited data

How the results depend on the processing

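Under every alternative run 0 members were called, and *Pde4a* and *Pde2a* stayed higher and *Pde7a* lower. With TPM as deposited, 0 members were higher and 1 lower at an unadjusted p under 0.05, 1 was separate upwards and 3 downwards, and 2 were higher and 6 lower. Of all tested genes 0.518% and 33.3%, 2.32% and 67.8% met these, and 9.38% were higher. Without mt- genes these counts were 1 and 1, 1 and 2, and 2 and 6, beside 1.11% and 28.5%, 4.41% and 58.9%, and 15.8% higher of all genes. Under these 2 scalings the signs turned for *Pde4b* (-0.14 and -0.068), *Pde4d* (-0.18 and -0.10) and *Pde1c* (-0.16 and -0.11), whose adjusted p was 0.500 to 0.825 there, while the median of all tested genes moved to -0.35 and -0.31. Quantile normalisation gave 0.030 for *Pde3a*. Without a filter 5 members were lower and 1 (*Pde5a*) was separate downwards, beside 18.2% of all genes separate downwards and 49.7% higher. At a mean TPM of at least 5 only 3 members were tested, 2 higher and separate and 1 lower, beside 24.8% of all genes separate upwards and 49.1% higher. With 24 genes as the denominator, the differences in share were -0.19 points for *Pde4b*, whose groups then overlapped, and -0.20 for *Pde5a*, against -0.48 and -0.28 with the 10 members.

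Each library was left out in turn, the remaining library of that group being assumed to vary like the others. The scaling factors and the filter were still computed from all libraries, the one left out included. In the order wild-type replicates 1 and 2 and heterozygous replicates 1 and 2, 4, 5, 4 and 6 members were separate upwards. Of all genes 34.3%, 32.8%, 38.7% and 41.1% were. Separate downwards were 1, 1, 3 and 0 members, beside 34.1%, 33.0%, 39.2% and 40.3% of all genes. Between 1 and 3 members were lower (1 without heterozygous replicate 2), where 48.8% to 50.3% of all genes were higher. The log2 fold changes ranged from 0.71 to 0.95 for *Pde4a*, 0.39 to 0.59 for *Pde2a*, -0.44 to -0.06 for *Pde7a*, 0.06 to 0.22 for *Pde1c*, 0.12 to 0.27 for *Pde4b*, -0.12 to 0.46 for *Pde4d* (below 0 without wild-type replicate 1), -0.11 to 0.10 for *Pde3a* and -0.17 to 0.13 for *Pde8a*. The *Pde4a* share difference ranged from 7.23 to 10.1 points. Over all alternatives the adjusted p of *Pde4a* was 0.129 to 0.918.

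Same numbers in both genotypes mark no shared animal or batch in the labels. Deviations of same-numbered libraries correlated at 0.101, and with the replicate number as a block 0 members were called, the adjusted p of *Pde4a* was 0.205, and 10 genes were called in all (3 higher, 7 lower) against 2. Calls over all genes were 0 without a filter, 4 with a pseudocount of 0.1, 3 with factors over all genes, 13 as deposited, 14 without mt- genes, 5 with robust eBayes, and 11 to 17 with 1 library left out. Of 287 values recomputed under an alternative, 250 were counted as unchanged, which allowed some movement. The number of members higher was counted so at 6 with quantile normalisation against 5. So was the *Pde4d* share difference, at 0.91 points without wild-type replicate 2 against -0.85. Others of the 250 could not differ. The log2 fold change of a gene, 0.83 for *Pde4a*, is the same without a filter, under the eBayes alternatives and with the replicate block. The 250 are therefore not read as a measure of stability. The cause of the changes between settings was not tested. Unknown depth leaves the counting error of the lowest members, *Pde3b* and *Pde5a*, unknown.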
